A study of Mus musculus with 2 samples.

Results

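The cytosolic ribosomal protein genes were represented by 49 probe sets of 35 genes, out of 12488 probe sets on the array and 8251 genes with a single-symbol probe set. A probe set is a group of short oligonucleotides that report 1 transcript. The members were all probe sets with a single annotated symbol of the Rpl, Rplp, Rps or Rpsa series, without the Rps6 kinases; the rule itself uses no measured value. They comprised 22 probe sets of 17 genes of the large subunit (Rpl and Rplp) and 27 probe sets of 18 genes of the small subunit (Rps and Rpsa). A further 39 probe sets carried several symbols, at least 1 of them ribosomal. They are given only in sum, because their signal cannot be assigned to 1 gene.

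The study compared Pax6-/- homozygous cerebral cortex with wild type cerebral cortex, both from NMRI mouse embryos at E14.5, in mid-gestation, to find genes downstream of the transcription factor Pax6. Each genotype was represented by 1 array, hybridised with biotin-labelled cRNA made from total RNA. Per the design text, 3 embryos of each genotype were used. Neither their pooling nor the name of the Pax6 allele is given in the sources used here. The signals are MAS5 intensities, the output of Affymetrix's own signal algorithm, on a linear scale. With no replicate array, no difference was tested, no p-value is given, and every value describes these 2 arrays.

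A cytosolic ribosome is built from ribosomal RNA and a fixed complement of ribosomal proteins. The large subunit joins amino acids and the small subunit reads the mRNA. Most of these proteins are encoded by 1 active gene each, with many processed pseudogenes of near-identical sequence, and their mRNAs typically begin with a cytosine and a run of pyrimidines, the terminal oligopyrimidine (TOP) start, through which mTORC1 adjusts their translation. Growing and dividing cells, such as cortical progenitors, make many ribosomes. A lower signal in bulk tissue cannot tell fewer cells with high ribosomal mRNA apart from less ribosomal mRNA per cell.

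RefSeq start sites (GRCm38.p6) were matched for 28 of the 35 genes, with some genes having several starts. An unbroken run of at least 8 bases C or T that covers the annotated start base was found at 7 of the 28 genes (25%). The share was 4.59% over the 27025 genes whose promoters were searched, and these are the genes meant by all genes in the sequence comparisons below. Those 7 are shown first, because the TOP start is the sequence feature that this gene family is known for. Each window holds 20 bases before the start base and 10 bases from it onward, 5′ to 3′ on the gene's strand, with the pyrimidine run in capitals.
Rpl7a, chr2:26910787-26910816, plus strand: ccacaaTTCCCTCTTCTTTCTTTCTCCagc
Rpl35a, chr16:33056462-33056491, plus strand: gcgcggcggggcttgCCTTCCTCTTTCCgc
Rpl38, chr11:114668560-114668589, plus strand: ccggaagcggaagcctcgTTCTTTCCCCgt
Rps10, chr17:27635235-27635264, minus strand: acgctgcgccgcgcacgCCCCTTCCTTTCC
Rps18, chr17:33955656-33955685, minus strand: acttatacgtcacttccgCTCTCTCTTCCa
Rps24, chr14:24490658-24490687, plus strand: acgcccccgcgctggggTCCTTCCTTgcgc
Rps27, chr3:90213639-90213668, minus strand: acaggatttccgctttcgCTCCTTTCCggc
Annotated starts are often not exact to the base. With a run allowed anywhere within 30 bases of the start, 14 of 28 member genes and 25.8% of all genes held one, and CTCTTT lay in that window for 2 member genes (7.14%) and 2.68% of all genes. The lowest member, Rpl22, held no such run at either of its annotated starts. They are printed for contrast, with no capitals because nothing matched.
Rpl22, first start, chr4:152324416-152324445, plus strand: atcagcgctgcttctggaatgttccagctc
Rpl22, second start, chr4:152325706-152325735, plus strand: ccgacttcgccctgggaaaagcaatagctg

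The 7 letters CCGGAAG, read on either strand and known as the core bound by Ets-family factors such as GABPA, lay between 250 bases before and 50 bases after a start of 12 of the 28 genes (42.9%), against 9.93% of all genes. The 4 matching genes with the lowest log2 ratio among those above the signal filter described below are shown, with the motif in capitals and 30 bases in each window.
Rps27l, chr9:66946084-66946113, plus strand: ccgcctctatcCCGGAAGttgctgaggggc
Rpl6, chr5:121204502-121204531, plus strand: ttgcttatagaCCGGAAGccgctgccttag
Rps7, chr12:28635949-28635978, minus strand: tttcagaagagCTTCCGGtttccacccacc
Rps10, chr17:27635255-27635284, minus strand: agccgcgcagcCCGGAAGagacgctgcgcc
TATAAA was found within the 50 bases before the start in 0 of the 28 genes, and in 3.15% of all genes. With 1 value per gene, taken from the brightest probe set, the median log2 ratio was −0.36 for the 7 genes with a pyrimidine run at the start and −0.46 for the 21 without, and −0.47 for the 12 genes with CCGGAAG and −0.40 for the 16 without. The 7 unmatched genes are in none of these groups, and most of them were above 0. They were Rpl32 (0.26), Rps14 (0.45), Rps20 (0.20), Rps29 (0.15), Rps4l (0.64), Rpl7 (−0.13) and Rpl8 (−0.86).

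Most ribosomal protein probe sets gave less signal on the Pax6-/- array than on the wild type array, by small amounts, a direction that was lost after loess scaling (24 lower, 25 higher). Values were compared as log2(signal + 81.5), mutant minus wild type, where 81.5 is the 25th percentile of all signals. The ratios were centred on the median of all probe sets above a filter on mean signal, the 40th percentile. Over all 49 probe sets the median log2 ratio was −0.31, against 0.05 over all 12422 probe sets that are not array controls. Below 0 were 34 of the 49 members (69.4%), where 45.9% of all probe sets were below 0. The ratios of the members ranged from −1.40 to 1.54, and their SD of 0.63 was close to the 0.64 of all probe sets. A difference of 2-fold or more toward lower values was found for 3 members, against 5.25% of all probe sets. Another 3 members were 2-fold or more higher, against 7.18%. Their combined signal made up 3.61% of the total signal on the mutant array and 4.39% on the wild type array.

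**Figure D1:**
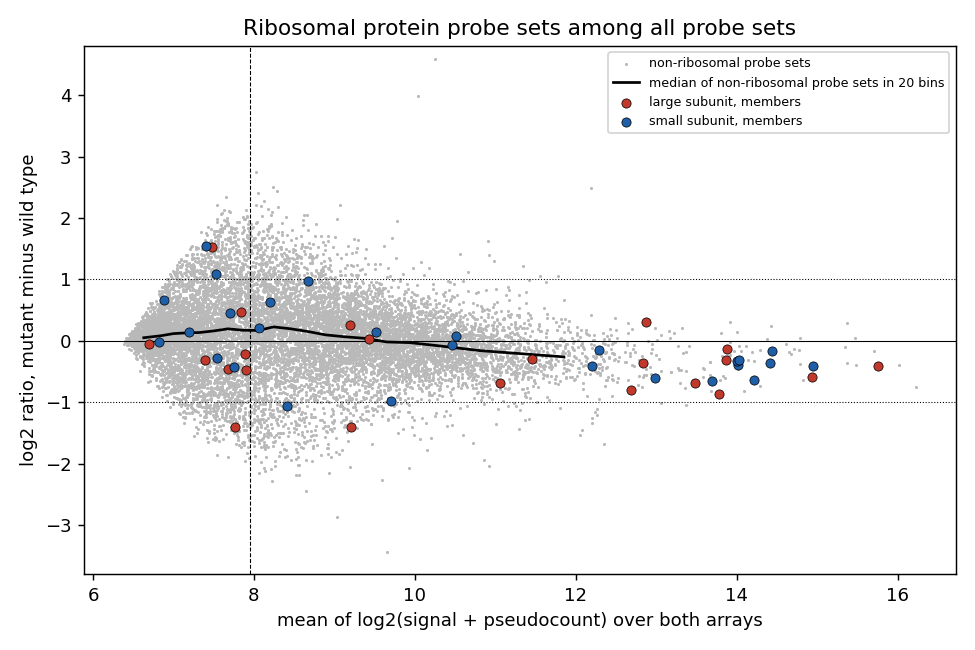
The log2 ratio of each probe set, mutant minus wild type, is plotted against the mean of log2(signal + pseudocount) over both arrays, with large subunit members in red, small subunit members in blue and non-ribosomal probe sets in grey. The black line is the median of the non-ribosomal probe sets in 20 bins of equal size, the dashed line the filter and the dotted lines a 2-fold difference. The line falls to −0.26 in the brightest bin, and 20 of the 21 members in that bin lie below 0, where loess scaling would bring their median to −0.021.

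Other bright probe sets were also lower, by less at the median. When all probe sets were placed in 20 bins of equal size by mean signal, the median log2 ratio of the non-ribosomal probe sets was 0.23 in the tenth bin, −0.08 in the 18th, −0.16 in the 19th and −0.26 in the brightest. The brightest bin began at a mean signal of about 2212 and held 21 members, with a median log2 ratio of −0.40 and a range from −0.86 to 0.30. Of these 21 members 20 were lower, as were 76.6% of the 578 non-ribosomal probe sets of that bin. None of the 21 members was 2-fold lower, against 3.29% of those non-ribosomal probe sets. The median difference of these members from the bin's non-ribosomal median was −0.13, with 17 members below that median and 4 above. Over all 49 members the median difference from non-ribosomal probe sets of the same mean signal was −0.10, with 31 members below and 18 above. For single members, a technical spread of 0.38 between probe sets of the same gene, taken over the 299 brightest genes with several probe sets, gives a scale.

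The brightest bin is wide, so its brightest part was also set apart, a choice made after the values were seen. At a mean signal of about 14840 or more, the 11 members were all lower, with a median of −0.36 and a range from −0.64 to −0.13, and 9 of them lay below the median of the non-ribosomal probe sets of the whole bin. The 38 non-ribosomal probe sets of that class had a median of −0.18, with 31 lower and 7 higher. Another 11 probe sets with several symbols, 1 of them ribosomal, had a median of −0.39 and were all lower. Over the whole array the 39 probe sets of that kind had a median of −0.25, with 30 lower. After loess scaling, which removes the dependence of the ratio on mean signal, the median of the 49 members was 0.01, with 24 lower and 25 higher. Of the 11 members of the class set apart, Rps7, Rplp0 and Rps3 then stayed below 0, at −0.25, −0.15 and −0.02. The others turned positive, from 0.02 for Rps24 to 0.24 for Rpl7, so the direction in this class depends on the scaling.

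**Figure D2:**
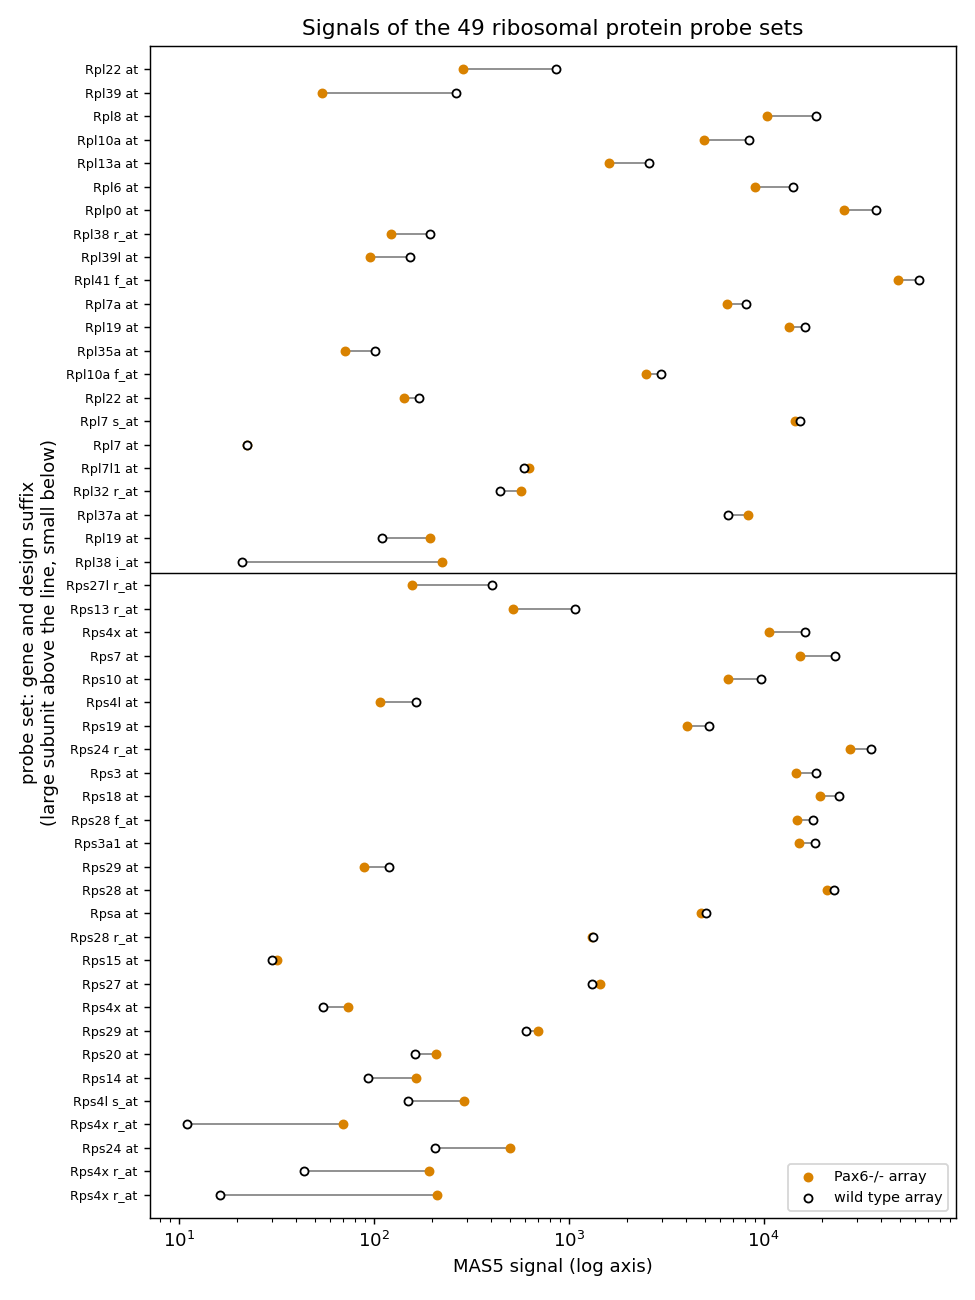
The MAS5 signal of each of the 49 probe sets, on a log axis, is drawn as a filled point for the Pax6-/- array and an open point for the wild type array, with the large subunit above the line and the small subunit below it. Each row gives the gene and the suffix of the probe set's design. Bright probe sets have short lines, mostly with the Pax6-/- point to the left, while the longest lines belong to dim probe sets such as those of Rpl38 and Rps4x.

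Among large subunit genes, the lowest ratio above the filter was that of Rpl22, a protein that mice can live without, although their T cells develop poorly. Its brighter probe set had a signal of 288 on the mutant array and 863 on the wild type array, a log2 ratio of −1.40 or 2.64-fold lower. This ratio ran from −1.64 to −1.08 over the scaling and pseudocount alternatives, past 2-fold in each of them. The second Rpl22 probe set, below the filter, had 142 in the mutant and 171 in the wild type, a log2 ratio of −0.22, so the 2-fold difference rests on 1 of 2 probe sets.

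The core proteins of the large subunit differed less, and their probe sets lay in the brightest bins. Rpl8, which contributes to the peptidyl transferase region, had signals of 10474 in the mutant and 18515 in the wild type, a log2 ratio of −0.86. Rpl10a, a protein of the L1 stalk that helps release spent tRNA, had 4971 in the mutant and 8429 in the wild type, a log2 ratio of −0.80. Relative to other probe sets of the same mean signal, the log2 difference was −0.601 for Rpl8 and −0.54 for Rpl10a, against the technical spread of 0.38. A second Rpl10a probe set, of a design with shared probes, had 2500 in the mutant and 2990 in the wild type, a log2 ratio of −0.30, and −0.035 relative to its bin. Rpl13a, which also takes part in translational silencing of inflammatory mRNAs, had 1619 in the mutant and 2579 in the wild type, a log2 ratio of −0.69. Rpl6, likewise a large subunit protein, had 9093 in the mutant and 14227 in the wild type, a log2 ratio of −0.69. Rplp0, which anchors the acidic stalk where elongation factors bind, had 25973 in the mutant and 37702 in the wild type, a log2 ratio of −0.58. Relative to its bin's median Rplp0 was at −0.32, within the technical spread.

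Other large subunit genes had smaller ratios. Rpl41, which encodes a very short basic peptide, had 48717 in the mutant and 62674 in the wild type, a log2 ratio of −0.41, or 0.06 after loess scaling. Rpl7a was at −0.36. Rpl19 was at −0.31, or 0.05 after loess scaling, with a second, dim probe set at 0.47. Rpl37a, a zinc-binding protein of the large subunit, was the exception among bright members, with 8353 in the mutant and 6558 in the wild type, a log2 ratio of 0.30. Rpl37a was the sole member of the brightest bin above 0 before loess scaling. Rpl32 was at 0.26, with signals of 568 in the mutant and 444 in the wild type.

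Among small subunit genes, the ratios of the brightest bin lay close together, from −0.65 to −0.14 with an SD of 0.17 over 11 probe sets. Rps4x, the X-linked gene for a small subunit protein, had signals of 10672 in the mutant and 16277 in the wild type with its brightest probe set, a log2 ratio of −0.65. Rps7, which can also bind the p53 regulator Mdm2, had 15341 in the mutant and 23131 in the wild type, a log2 ratio of −0.64. Rps10 was at −0.60, with 6575 in the mutant and 9698 in the wild type. Relative to the non-ribosomal probe sets of their bin, all 3 lay between −0.39 and −0.34, about the size of the technical spread.

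Rps19, the gene most often mutated in human Diamond-Blackfan anaemia, had signals of 4038 in the mutant and 5247 in the wild type, a log2 ratio of −0.42. Rps3, which lines the mRNA entry channel, was at −0.40, with 14602 in the mutant and 18627 in the wild type. Rpsa, once described as a laminin receptor, was at −0.14, with 4757 in the mutant and 5099 in the wild type. Rps18 was at −0.36 and Rps3a1 at −0.32. After loess scaling Rps18, Rps3a1, Rps28 and Rpsa turned to positive values between 0.03 and 0.23, so their direction depends on how the arrays are scaled.

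In the mid-range of signal, Rps13 had 520 in the mutant and 1075 in the wild type, a log2 ratio of −0.99, just short of 2-fold. The Rps13 probe set has the suffix that Affymetrix gave to sets built under relaxed rules. Its ratio ran from −1.10 to −0.81 over the scaling and pseudocount alternatives. Rps27, Rps29 and Rps20 lay on the other side, at 0.07, 0.15 and 0.20. The 3 Rps28 probe sets, all above the filter, were at −0.32, −0.17 and −0.06. The 12 members between the filter and the brightest bin had a median of 0.05, with 5 below 0 and 7 above.

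**Figure D3:**
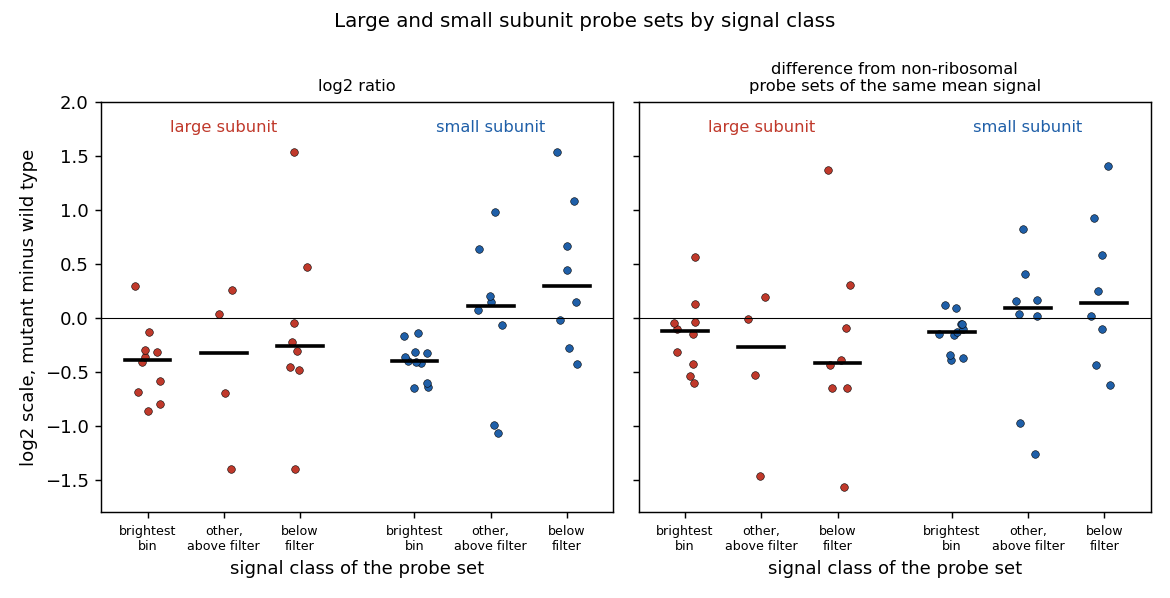
Each point is 1 ribosomal protein probe set, by subunit and signal class, with bars for medians. The left panel gives the log2 ratio, mutant minus wild type, and the right panel its difference from non-ribosomal probe sets of the same mean signal. In the brightest bin the subunits have medians of −0.39 (large) and −0.40 (small), and they part among the dimmer probe sets.

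Large and small subunit probe sets differed little where the signal was high. Over all probe sets the median log2 ratio was −0.34 for the large subunit, with 17 of 22 lower, and −0.17 for the small subunit, with 17 of 27 lower. In the brightest bin it was −0.39 for the 10 large subunit probe sets and −0.40 for the 11 small subunit ones. Relative to non-ribosomal probe sets of the same mean signal, the medians there were −0.12 for the large and −0.13 for the small subunit. Below the filter, the 8 large subunit probe sets had a median of −0.26 and the 8 small subunit ones 0.30. Of the 8 dim small subunit probe sets, 4 belong to Rps4x.

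A total of 16 members lay below the filter, at a mean signal under about 166, where the array measures poorly and the pseudocount sets the size of a ratio. They were probe sets of Rpl39, Rpl38 (2), Rpl39l, Rpl35a, Rpl22, Rpl7, Rpl19, Rps4l, Rps29, Rps15, Rps14 and Rps4x (4). Their median was −0.03, with 9 below 0 and 7 above. The lowest was Rpl39, which lines the peptide exit tunnel, with 54.5 in the mutant and 265 in the wild type and a log2 ratio of −1.40. That ratio ran from −2.33 without a pseudocount to −0.78 with the 50th percentile as the pseudocount. The highest were 1 Rps4x probe set at 1.54, with 212 in the mutant and 16.3 in the wild type, and 1 Rpl38 probe set at 1.53, with 225 in the mutant and 21.2 in the wild type. A second dim Rps4x probe set was at 1.08. All 3 probe sets past 2-fold higher were of relaxed or incomplete design by their suffix.

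Probe sets of the same gene often disagreed. Of the 35 genes, 10 had several probe sets, and for 4 of them, Rpl22, Rpl10a, Rps28 and Rpl7, all had the same sign. For the remaining 6 genes, Rps4x, Rpl38, Rps24, Rps4l, Rpl19 and Rps29, the signs differed. The widest gap was that of Rps4x, from −0.65 in its brightest probe set to 1.54, and the next that of Rpl38, whose mouse mutants have skeletal patterning defects, from −0.48 to 1.53, with both of its probe sets below the filter. Rps24, whose mRNA is spliced into isoforms with different 3′ ends, had 27749 in the mutant and 35673 in the wild type with 1 probe set, a log2 ratio of −0.41, or 0.02 after loess scaling. That probe set has the suffix of relaxed design. The other Rps24 probe set, also above the filter and without such a suffix, had 502 in the mutant and 206 in the wild type, a log2 ratio of 0.98. The paralogue Rps4l had ratios of −0.42 and 0.64. With 1 value per gene, from its brightest probe set, 27 of 35 genes were lower, and the median was −0.40 over all 35 genes, −0.46 for 17 large subunit genes and −0.34 for 18 small subunit genes. The share of all genes on the array that were lower by that rule was not computed, so this count has no background.

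Paralogues were measured in few pairs, since Rpl22l1, Rpl3, Rpl36a and Rpl36al had no probe set with a single symbol. Rps27l, a p53-inducible paralogue of Rps27, had 157 in the mutant and 403 in the wild type, a log2 ratio of −1.07, which fell within 2-fold with the larger pseudocount, at −0.71. The only Rps27l probe set has the suffix of relaxed design, as that of Rps13 does. Rps27 itself was at 0.07, with 1443 in the mutant and 1321 in the wild type. Rpl39l, a paralogue used mainly in spermatids, was at −0.46, with 95.4 in the mutant and 154 in the wild type, below the filter. Rpl7l1, a nucleolar relative of Rpl7, was at 0.03. The brighter Rpl7 probe set, of a design with shared probes, was at −0.13, or 0.24 after loess scaling.

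Genes that act with the ribosomal proteins were examined as lists. Other mRNAs with a TOP start, chiefly translation factors, had a median log2 ratio of −0.03 over 33 probe sets of 22 genes, with 18 lower and 15 higher. Of the 8 probe sets of this list in the brightest bin, some were lower and some near 0. Eef1a1, the elongation factor that brings aminoacyl-tRNA to the ribosome, had signals of 47985 in the mutant and 62080 in the wild type, a log2 ratio of −0.42. Eef2, which moves the ribosome along the mRNA, was at −0.56, and Tpt1 was at −0.36. Eif2s3x was at −0.10, Eif3k at −0.03 and Naca at 0.009. The largest ratios of that list came from dimmer probe sets. Eif3f was at 1.41, and 1 Eif3l probe set was at 1.03 against −0.56 for the brighter one. For Eif4b, 1 probe set was at −0.93 and its brightest one at 0.06. Above the filter, the 24 probe sets of this list had a median of −0.26, and the 33 ribosomal protein probe sets above the filter one of −0.36.

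**Figure D4:**
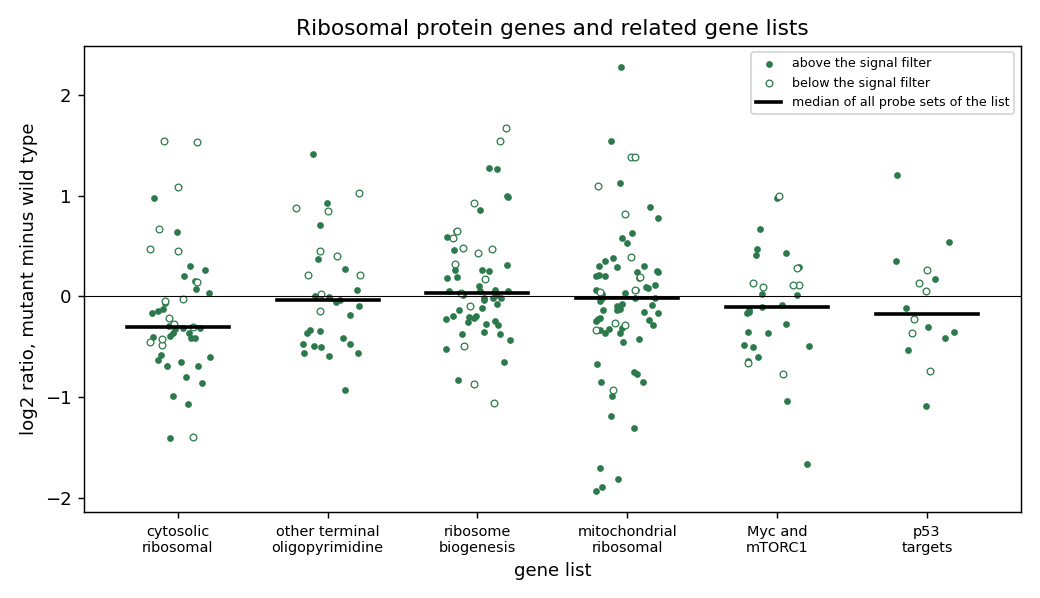
Each point is 1 probe set, with its log2 ratio, mutant minus wild type, on the vertical axis and the gene list on the horizontal axis. Filled points lie above the signal filter, open points below it, and bars are medians over all probe sets of a list. The cytosolic ribosomal protein list has its median at −0.31, and the medians of the other lists lie between −0.17 and 0.03.

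Ribosome biogenesis factors, which make and assemble the subunits in the nucleolus, had a median of 0.03 over 59 probe sets, with 27 lower and 32 higher. The abundant nucleolar genes Npm1, Ncl and Fbl were at −0.04, 0.11 and −0.29. At least 2-fold higher were Ltv1 at 1.67, Wdr12 at 1.54, Ebna1bp2 at 1.27 and Rcl1 at 1.26, and the exonuclease gene Xrn2 was at −1.06. The wild type signals of Ltv1, Wdr12 and Rcl1 were 52.97, 19.0 and 96.6, so those ratios lean on the pseudocount. With 5 of 59 probe sets past 2-fold in either direction, this list was not above the background shares of 5.25% lower and 7.18% higher.

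Mitochondrial ribosomal proteins, which build the separate ribosome of mitochondria, had a median of −0.01 over 76 probe sets, with 40 lower and 36 higher. Past 2-fold were 6 probe sets in each direction, or 7.89% each way, near the background shares of 5.25% lower and 7.18% higher. The lower ones were Mrpl45 at −1.93, Mrpl11 at −1.89, Mrpl21 at −1.81, Mrpl16 at −1.71, Mrps12 at −1.31 and Mrps7 at −1.19. A second Mrpl45 probe set was at 0.35. The higher ones were Mrpl55 at 2.28, Mrpl33 at 1.55, Mrpl49 at 1.39, Mrpl50 at 1.38, Mrpl36 at 1.13 and Mrps5 at 1.10. Mutant signals of the 4 lowest were between 62.2 and 102, and the wild type signal of Mrpl55 was 43.1, all near or below the pseudocount or the filter.

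The list of Myc-family and mTORC1 genes pools activators of ribosome production with inhibitors, so its median cannot give a direction of their activity. It had a median of −0.10 over 31 probe sets, with 17 lower and 14 higher. Above the filter, 23 probe sets had a median of −0.16, with 15 lower and 8 higher. Mtor, the kinase itself, had 1 probe set at −1.67, with 132 in the mutant and 577 in the wild type. Another was at 0.03, with 1249 in the mutant and 1183 in the wild type. The mTORC1 inhibitor gene Ddit4 was at −1.03, with 1233 in the mutant and 2529 in the wild type, 1 dim probe set of Mlst8 was at 1.0, and the brighter probe set of Mycn, the Myc gene of neural progenitors, was at −0.35. The p53 target list, chosen because free ribosomal proteins can stabilise p53, had a median of −0.17 over 16 probe sets, with 9 lower and 7 higher. Cdkn1a, the best known p53 target, had probe sets at 1.20 and −0.30, Zmat3 was at −1.09, and 1 dim probe set of Fas was at −0.74.

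Pax6, with 1 probe set, had 447 in the mutant and 1169 in the wild type, a log2 ratio of −1.29, and the position of its probes relative to the mutation is not given in the sources used here. Of 12 listed markers of the dorsal cortex 9 had a single-symbol probe set. Eomes, a marker of intermediate progenitors, had probe sets at −3.44 and −1.39, and the first had 167 in the mutant and 2535 in the wild type. Tbr1, a marker of early cortical neurons, had 2405 in the mutant and 5088 in the wild type. Of the progenitor genes, Sox2 had 5042 in the mutant and 2304 in the wild type. Nes had 4035 in the mutant and 3461 in the wild type with its brighter probe set, a log2 ratio of 0.17. Its dim probe set was at 0.38. For Hes5 the brighter probe set was at −0.25 and the dim one at 0.02. The ratios of the brighter Nes and Hes5 probe sets were within the technical spread of 0.38. Those 9 genes, with Tubb3 the brightest, summed to 36765 in the mutant and 44972 in the wild type. Markers of other cell types were summed in the same way. Erythroid markers gave 15628 in the mutant and 18635 in the wild type, and meningeal markers 4297 in the mutant and 3102 in the wild type. Microglial markers gave 4548 in the mutant and 2972 in the wild type, and vascular markers 2121 in the mutant and 1742 in the wild type. Such sums are led by the brightest probe sets, such as 1 of Col1a2, with 2436 in the mutant and 1828 in the wild type. Ratios went both ways in each list, as with Klf1 at 0.56 and Twist1 at −0.95. Below 0 were 5 of 8 erythroid, 6 of 14 meningeal, 2 of 12 microglial and 3 of 8 vascular probe sets, against 45.9% of all probe sets. Past 2-fold were Twist2 at 1.52 and Lum at −1.08 among meningeal markers, and Cldn5 at 1.06 among vascular ones. Among microglial markers, 1 probe set each of Csf1r (1.54), Laptm5 (−1.36) and C1qb (1.14) was past 2-fold. The other probe sets of these genes were at 0.34, 0.06 and −0.93. The part of these cell types in the ribosomal values was not tested, and no marker was listed at 0. The beta-actin controls, which check RNA integrity along a transcript, gave −0.67 for the 3′ probe set and −0.97 for the 5′ one. The Gapdh controls gave −0.06 for the 3′ probe set and −0.34 for the 5′ one. Both ratios were lower at the 5′ end, and the part of RNA integrity in the ribosomal values was not tested.

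**Figure D5:**
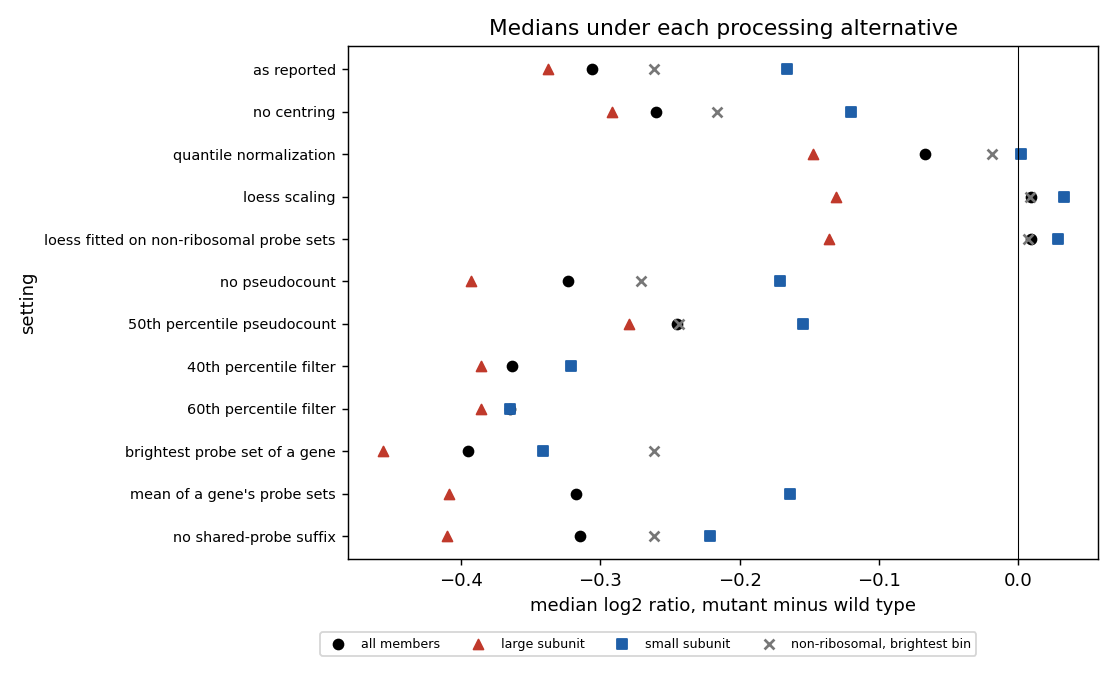
The median log2 ratio, mutant minus wild type, is shown on the horizontal axis under each processing setting, for all members, for each subunit and, where it was recomputed, for the non-ribosomal probe sets of the brightest bin. Quantile normalization and loess scaling move the ribosomal medians together with that of the bright non-ribosomal probe sets, to 0.01 for all members and −0.13 for the large subunit after loess scaling.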

How the data were processed

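The authors deposited 1 signal intensity per probe set and array on a linear scale, made with MAS5 per the submitters' processing notes. No version or scaling target is stated in the labels, and no detection calls were used. The 2% trimmed mean was 500.2 on both arrays, and the median was 284 on the mutant array and 237 on the wild type array. GEO's platform annotation paired 10855 probe sets with 1 symbol and 396 with more than 1, left 1237 unnamed, and 66 probe sets were controls. All 35 member symbols were found in the mouse gene table (GRCm38.p6). Signals were compared as log2(signal + 81.5), and centring removed a shift of 0.05. The pseudocount makes the ratios of dim probe sets smaller than the plain signal ratios. The technical spread compares the log2 ratios of the 2 brightest probe sets of each gene that has several (SD of their difference over the square root of 2), so it leaves out differences between embryos. Precision is limited by having 1 array per genotype.

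Members were named when past 2-fold, among the 12 lowest or 6 highest, below the filter, from a gene with several probe sets (the 6 with the widest gap), a paralogue or of known extra role, and genes of the related and marker lists when past 2-fold or, in the related lists, among the 3 largest. A few bright or familiar genes (such as Rps18, Npm1, Eef1a1, Mycn and Hes5) were named after their values were seen. The members and lists were chosen with earlier results of these data known. Start sites and sequences are RefSeq's. Alternatives covered scaling, pseudocount, filter, probe sets per gene, probe design, threshold and bins. The log2 ratios and the comparison with probe sets of the same mean signal were first run on simulated arrays with known changes. The simulated ratios did not depend on mean signal, so that run cannot show how the comparison handles the dependence seen in these arrays. The other scalings and pseudocounts, the technical spread and the sequence searches were not simulated. Calculations ran in Python 3.11.15 with pandas 2.3.3 and numpy 2.4.6. Loess came from statsmodels 0.14.6, and figures from matplotlib 3.10.9.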

Additional observations from a re-analysis of the deposited data

How the results depend on the processing

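Of 240 recomputed summary values 181 stayed within the limits set for them (0.1 on the log2 scale for a median, 1.5 times for a count), 47 moved further and 12 with a reported value beyond 0.1 changed sign; the cause was not tested. Among the other values, 11 changed sign from a reported value within 0.1 of 0: other TOP mRNAs (also 0.013 without centring), mitochondrial ribosomal proteins (0.031 without centring), the small subunit relative to the same mean signal (0.022 with quantile normalization, 0.029 with either loess fit) and ribosome biogenesis (−0.015 above the 40th and −0.020 above the 60th percentile, −0.015 with the brightest probe set). Of 245 recomputed ratios of single members 237 moved by less than the technical spread over all genes, 0.56, and 18 changed sign, and over 6 scaling and pseudocount settings 22 of the 49 members were lower in all, 15 higher in all and 12 mixed. With quantile normalization the median log2 ratio was −0.067 over all members, −0.15 for the large subunit (−0.12 relative to the same mean signal), 0.0018 for the small subunit, −0.084 for members of the brightest bin, −0.019 for its non-ribosomal probe sets and 0.074 for the other TOP mRNAs. With loess scaling these were 0.0092, −0.13 (−0.13), 0.033, −0.021, 0.0085 and 0.093, and with loess fitted on non-ribosomal probe sets alone, added after seeing the data, 0.0092, −0.14, 0.028, −0.026, 0.0070 and 0.093. The difference from the same mean signal was 0.0031 over all members and −0.029 in the brightest bin with the first loess fit, and 0.0025 and −0.033 with the second. The Myc and mTORC1 list was at 0.0026 with the first and 0.0032 with the second. All 3 members past 2-fold higher lay below the filter, as did 1 of the 3 past 2-fold lower. Without a pseudocount 5 members were 2-fold higher, and the large subunit was at −0.37 relative to the same mean signal. With the 50th percentile as pseudocount 1 was 2-fold lower and 0 higher. At 1.5-fold 11 were lower and 6 higher, and at 3-fold 0 in either direction. Shares of all probe sets were computed only for 2-fold at the reported settings, so these counts have no background. None (0) was 2-fold higher above the 40th or 60th percentile filter, with 1 value per gene (brightest probe set, or average), or without suffixed probe sets, and 1 was 2-fold lower above the 60th percentile. Leaving out dim probe sets drew the subunits together. Above the 40th percentile the small subunit was at −0.32, the large minus small difference at −0.065, the large subunit relative to the same mean signal at −0.12 and the other TOP mRNAs at −0.26. Above the 60th these were −0.36, −0.021, −0.12 and −0.34, and the p53 targets were at −0.33. In the brightest bin alone, added after seeing the data, the small subunit was at −0.40, the difference at 0.0092 and the large subunit relative to the same mean signal at −0.12, with 20 members lower. With the brightest probe set of each gene the large subunit was at −0.46 (−0.43 relative to the same mean signal), the small subunit at −0.34 and the other TOP mRNAs at −0.22. With probe sets averaged by gene the p53 targets were at −0.032, and without suffixed probe sets the large subunit was at −0.41 relative to the same mean signal. No paired analysis was possible because each genotype has 1 array. The same lack of replicates means that no difference here can be set against variation between embryos, and dim probe sets are limited by signal over background.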
